A study of Mus musculus with 12 samples.

Results

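The response to interferon-beta (IFNb) was measured in control cells of B16, an established mouse melanoma line, by RNA-seq. It rests on 6 of the 12 libraries of a study of cells that lack Adar, an enzyme that edits double-stranded RNA, and the 6 are those whose labels name the control guide. In 3 of them the cells had received IFNb at 1000 U per mL and in 3 the vehicle, phosphate-buffered saline with albumin, and the cells of both were collected after 36 h. The control cells had been through a transient transfection with Cas9 and control sgRNA 5, which has no target, and through subcloning, so their Adar gene was not targeted and they stand for 1 guide and 1 subcloned population. The other 6 libraries hold B16 cells that went through the same steps with Adar sgRNA 1, are labelled as knockout cells and were given IFNb (3 libraries) or vehicle (3 libraries) in the same way. They are called Adar-null here and enter only where the control response is compared with theirs. All 12 libraries share the line, Cas9, a guide, subcloning and the culture medium. An interferon-gamma arm is not analysed here. The labels do not say whether the libraries of a group come from separate cultures, so p-values reflect only how far the libraries of a group differ, and that may be technical.

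Type I interferons such as IFNb bind a receptor made of Ifnar1 and Ifnar2, whose kinases Jak1 and Tyk2 phosphorylate STAT proteins such as Stat2. With Irf9 these form a complex that enters the nucleus and binds the interferon-stimulated response element (ISRE) in the promoters of antiviral genes. The integrated stress response is a separate pathway in which kinases that sense stress slow translation while Atf4 is made, and Atf4 with C/EBP partners binds a composite element at genes of amino acid synthesis and transport. Tumour cells of the melanocyte lineage express pigment genes and can respond to interferon themselves.

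The labelled cell type was checked first. All 8 melanocyte markers were among the genes tested, and their summed level was 16191 to 17061 CPM (counts scaled to library depth with TMM factors) over the vehicle libraries and 13969 to 14300 CPM over the IFNb libraries. Of 16 leukocyte markers 1 was tested, Cd68, which rose by 1.33 ± 0.41 on the log2 scale, and the list had a summed level of 2.16 to 2.80 CPM with vehicle and 2.67 to 5.57 CPM with IFNb. The leukocyte gene Ptprc had 0 counts in the vehicle libraries and 1 in the IFNb libraries. Markers of fibroblasts, endothelium and epithelium summed to 6.31 to 8.07 and 3.86 to 4.64 CPM. The control libraries held 5405621 to 7114709 counts, of which Rn45s, the ribosomal RNA precursor, took 21.5% to 22.4% with vehicle and 24.9% to 25.3% with IFNb. The part of this shift in the results was not tested, and leaving Rn45s out of the table gave 3124 genes higher and 3004 lower, against 3067 and 3066 with it.

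Promoters are shown first because the genes that rose most and those that fell most differed in what they hold there. RefSeq windows on GRCm38.p6, from 250 bases before to 50 after each start site, were available for 9240 of the 11561 tested genes. A gene can have several start sites, and some lie inside it. The following 4 stretches lie before the starts of genes that rose: Isg15, a ubiquitin-like modifier (chr4:156200835-156200936, minus strand), Oas3, a synthetase of 2-5A (chr5:120777685-120777774, minus strand), B2m, the light chain of MHC class I (chr2:122147508-122147597, plus strand), and Igtp, an immunity-related GTPase (chr11:58199482-58199555, plus strand). Capitals mark matches to GAAA, any 2 bases and GAAA, the core of the ISRE, on either strand, and in Isg15 they cover 3 overlapping matches. These 4 genes were chosen because they hold a match, and the shares over all genes with a window are given below.
Isg15: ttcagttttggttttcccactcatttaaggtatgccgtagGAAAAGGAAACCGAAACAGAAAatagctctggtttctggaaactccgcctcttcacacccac
Oas3: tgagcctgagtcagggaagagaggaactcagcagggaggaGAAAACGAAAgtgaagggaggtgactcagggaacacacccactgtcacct
B2m: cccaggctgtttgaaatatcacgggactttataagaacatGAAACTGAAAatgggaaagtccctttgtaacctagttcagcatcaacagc
Igtp: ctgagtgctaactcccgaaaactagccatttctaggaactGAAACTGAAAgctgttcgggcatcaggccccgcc

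The next 4 stretches lie before the starts of genes that fell: Slc7a11, a cystine transporter (chr3:50443614-50443719, minus strand), Nupr1, a stress-induced nuclear protein (chr7:126625533-126625620, minus strand), Chac1, an enzyme that degrades glutathione (chr2:119351009-119351096, plus strand), and Pycr1, an enzyme of proline synthesis (chr11:120643804-120643891, minus strand). Capitals mark TGATGNAA, the core of the C/EBP-ATF composite element, or its reverse complement. Slc7a11 holds 2 matches, before a start site inside the gene, which spans 50364936 to 50499087. These 4 genes, too, were chosen because they hold a match, which most genes that fell do not.
Slc7a11: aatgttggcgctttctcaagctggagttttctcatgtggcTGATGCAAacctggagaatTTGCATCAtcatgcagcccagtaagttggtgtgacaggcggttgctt
Nupr1: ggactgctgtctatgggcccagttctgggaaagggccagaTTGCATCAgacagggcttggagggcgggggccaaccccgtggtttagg
Chac1: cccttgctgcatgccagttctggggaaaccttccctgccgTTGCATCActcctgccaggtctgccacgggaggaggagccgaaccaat
Pycr1: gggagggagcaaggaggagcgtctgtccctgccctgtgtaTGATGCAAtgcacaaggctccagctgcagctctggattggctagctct

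Among genes that IFNb raised by at least 2-fold, 76 of 379 with a window (20.1%) held the ISRE core, against 3.64% of all tested genes with a window and 3.44% of all 32851 windows in the table. The share was 42.8% of the 145 genes raised at least 4-fold and 58.6% of the 87 genes raised at least 16-fold. Among genes raised by less than 2-fold it was 3.09%, close to the 2.99% of genes that were not called. The C/EBP-ATF core was most frequent among genes that fell: 33 of 250 genes lowered by at least 2-fold (13.2%) held it, and 14 of 47 lowered at least 4-fold (29.8%). All tested genes had it in 2.68% and all windows in 3.97%. Among genes raised its share was 3.69% at 2-fold, 6.21% at 4-fold and 6.90% at 16-fold, also above that of all tested genes. The ISRE core was found in 3.2% of genes lowered at least 2-fold. TTCNNNGAA, the core of the gamma-activated site to which STAT dimers bind, occurred in 11.1% of genes raised and 9.2% of genes lowered at least 2-fold, beside 8.18% of all tested genes and 8.30% of all windows. TTTCCCGC, an E2F core of cell-cycle promoters, occurred in 0.792% of genes raised, 1.2% of genes lowered and 2.48% of all tested genes, and in 1.07% of all windows. Shares of windows are not like shares of genes, since a gene can have several windows. Over all 27025 genes with a window, tested or not, the gene shares were 3.99% (ISRE), 4.51% (C/EBP-ATF), 9.55% (gamma-activated site) and 1.24% (E2F). The C/EBP-ATF share of genes raised at least 2-fold lies below this. Both strands were searched for each motif, and the 4 motifs were counted separately even where matches overlapped. A match is a run of letters in this window and does not show that a factor binds.

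**Figure D1:**
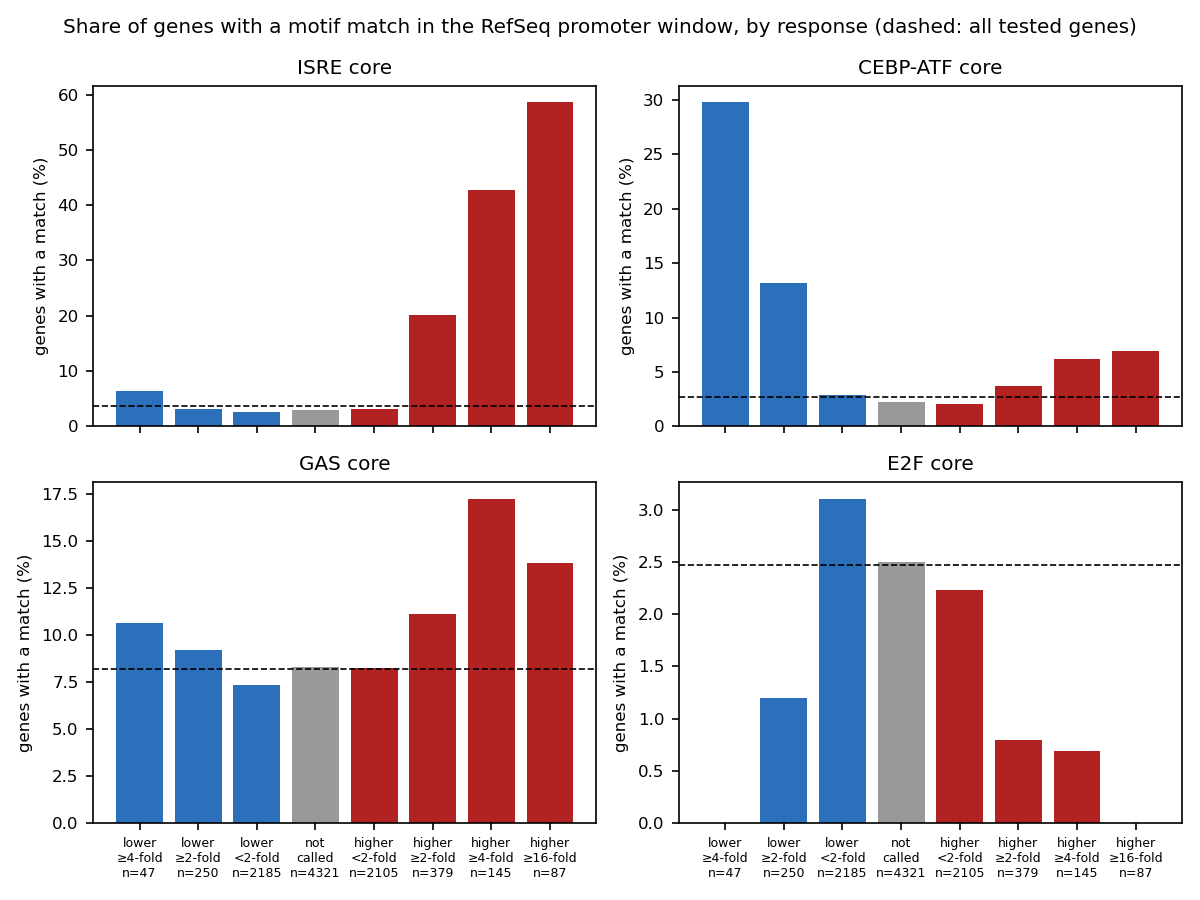
Share of genes (%, from 0) whose RefSeq promoter window holds each of 4 motif cores, by response class in control cells; classes of at least 2-fold include those of at least 4-fold and 16-fold, n is the number of genes with a window, and the dashed line is all tested genes. The ISRE core reaches 58.6% at 16-fold and above, and the C/EBP-ATF core reaches 29.8% among genes lowered at least 4-fold.

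The comparison of IFNb with vehicle asks how melanoma cells with intact Adar respond across all genes. Genes were called at an adjusted p under 0.05 in an edgeR quasi-likelihood fit over all 12 libraries, and of 11561 genes tested 6133 (53.0%) were called. With TMM scaling as many rose as fell, 3067 (26.5%) against 3066 (26.5%). With library size alone as the scaling the split was 2469 against 3797, so the balance depends on the scaling. Most changes were small: the median size of a called change was 0.45 on the log2 scale, and the median over all tested genes was -0.0049. At 2-fold or more 807 genes were called (6.98%), 487 higher (4.21%) and 320 lower (2.77%). Size separated the directions, since 187 genes rose and 60 fell at least 4-fold, and 117 rose and 12 fell at least 16-fold. The counts by level before treatment are a description, since genes near 0 with vehicle can hardly be called 2-fold lower. Of 255 tested genes under 1 CPM with vehicle, 151 (59.2%) rose at least 2-fold and 0 fell, which includes 46 genes with no vehicle count, while of 1931 genes above 100 CPM 18 rose (0.932%) and 77 fell (3.99%). Genes under 1 CPM with vehicle entered the test mostly through their level in another group, so their share is a description only. The groups of 3 libraries did not overlap for 6656 genes (57.6%), 5714 of them among the called ones.

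**Figure D2:**
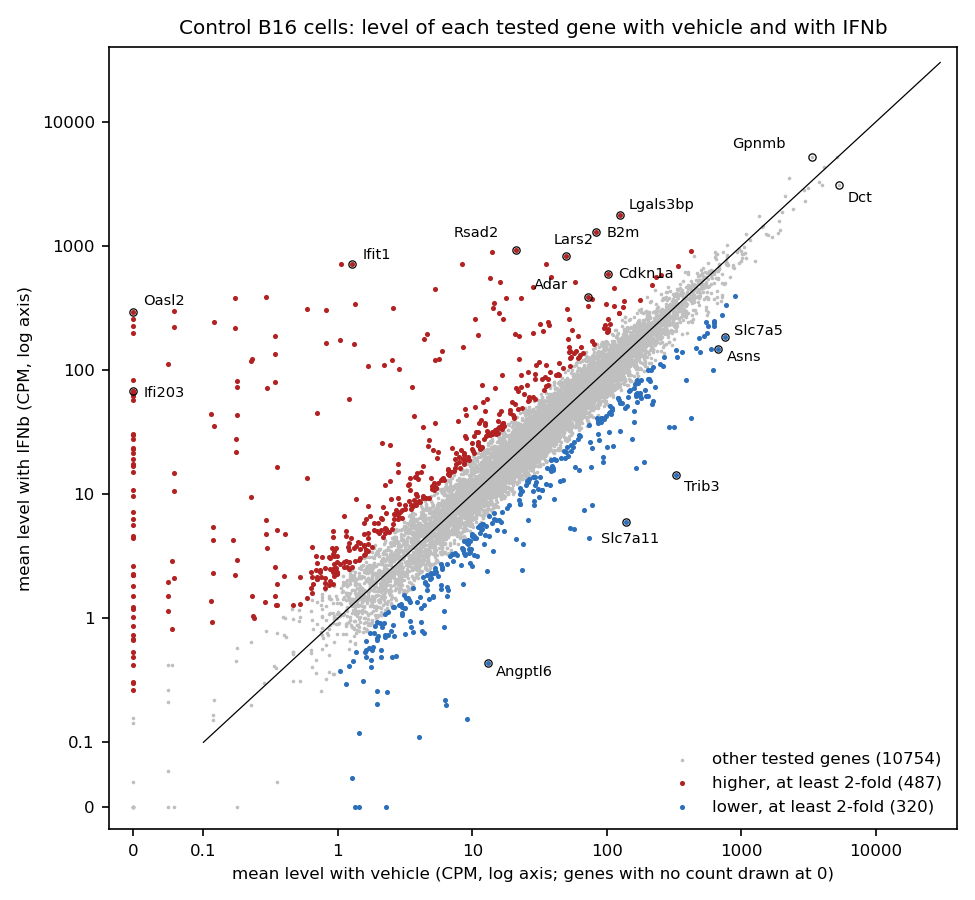
Mean level of each of 11561 tested genes over 3 control libraries with vehicle (x) and 3 with IFNb (y), in CPM on log axes, with genes that had no count drawn at 0; red and blue mark genes called and changed at least 2-fold, and the line marks equal levels. The 487 red genes spread far above the line at low vehicle levels, where Oasl2 and Ifi203 start at 0, and the 320 blue genes lie closer to it, with Trib3, Slc7a11 and Angptl6 among those labelled below it.

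The genes with the largest fitted log2 fold changes had 0 or 1 count in all vehicle libraries together. For a gene at 0 the fitted value depends on the prior count of the fit, which favours such genes in this order. Genes with 2 or 3 vehicle counts, given in the next paragraph, reached ratios of 2128 and 2209. Which genes rose most is therefore not settled by this order. Oasl2, an antiviral protein of the OAS family (chromosome 5, 114896926 to 114912245 of GRCm38), had 0 counts in the 3 vehicle libraries and stood at 302, 297 and 288 CPM with IFNb, at least 1705-fold higher against a floor of 3 counts per group. Apol9a, an apolipoprotein L gene, went from 0 to 265, 245 and 267 CPM (at least 1490-fold). Ifi44, an interferon-induced antiviral gene, went from 0 to 237, 219 and 221 CPM (at least 1298-fold). No vehicle library of these genes overlapped an IFNb library, which the rule that chose them required. Oas3 (at least 1140-fold), Ddx60, a helicase of the RIG-I pathway (at least 476-fold), Ifi203, a HIN-200 DNA sensor (at least 393-fold), Oas1a (at least 391-fold), Trim30d (at least 373-fold) and the GTPase genes Tgtp1 (at least 354-fold) and Tgtp2 (at least 329-fold) also had no vehicle count. Apol9b had 1 vehicle count and 5666 counts with IFNb, a ratio of 5140 with a 95% counting interval of 922 to 203052. Iigp1, another GTPase gene, had 1 and 4206 counts, a ratio of 3816 (684 to 150739). Apol9a and Apol9b, Tgtp1 and Tgtp2, and the members of the Oas1, Gbp, Ifi200, Trim30 and class I H2 families have near-identical copies, between which the counting may have divided reads, so their single values are uncertain.

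By a fixed rule, 74 genes were switched on, with 3 counts or fewer over the vehicle libraries and at least 1 CPM with IFNb, and 40 of these had no vehicle count. Those at the highest level with IFNb that were not yet described were Oas2 (3 against 7305 counts, ratio 2209, interval 756 to 10714), Igtp (2 against 4691, ratio 2128, 589 to 17575) and I830012O16Rik, a gene of the Ifit cluster (3 against 4124, ratio 1247, 426 to 6049). By contrast 9 genes were switched off by the mirrored rule, and 4 of them had no count with IFNb. G0s2, an inhibitor of fat breakdown, fell from 157 counts to 3, a ratio of 0.0173 (0.00354 to 0.0516), and Akr1b7, an aldo-keto reductase gene, from 70 to 2. Atp2a3, a calcium pump gene (39 against 0 counts, at least 14.3-fold lower), Elfn2 (25 against 0, at least 9.19-fold) and Soat2, which esterifies cholesterol (24 against 0, at least 8.82-fold), were at 0 in every IFNb library. The number switched off rose to 27 without IFNb replicate 2 and to 25 without IFNb replicate 3, where the same limit of 3 counts covered fewer libraries.

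Upstream of these genes, no change of the receptor genes was called. Ifnar1 (-0.07 ± 0.06, Wald standard error as for all log2 fold changes, adjusted p = 0.358), Ifnar2 (0.09 ± 0.10, adjusted p = 0.432) and the kinase gene Tyk2 (0.14 ± 0.08, adjusted p = 0.139) did not pass the test. Jak2 fell by 0.45 ± 0.08 and Ptpn2, a phosphatase that acts on the pathway, fell by 0.35 ± 0.09. Stat2 went from 5.65 ± 0.99 to 123 ± 12.6 CPM (SD over 3 libraries, as for all CPM; 4.44 ± 0.15) and Stat3 rose by 0.65 ± 0.06. Usp18, which removes ISG15 and blocks the receptor, went from 0.702, 1.32 and 1.98 to 342, 336 and 334 CPM (7.97 ± 0.30). Of the 24 tested genes of receptor and JAK-STAT signalling 10 were higher and 3 lower (54.2% called, near the 53.0% of all tested genes), with a median of 0.11.

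Of 10 tested interferon regulatory factors and cofactors 7 rose. List counts here and below stand beside 26.5% of all tested genes called in each direction. At 2-fold or more the shares were 4.21% higher and 2.77% lower. Members silent with vehicle were tested only through their level in another group, so the filter partly sets the counts of rises. Irf7, the factor that amplifies interferon production, stood at 0.175, 0.659 and 0.180 CPM with vehicle and at 137, 133 and 136 CPM with IFNb (8.52 ± 0.59). Irf9, the DNA-binding partner of Stat2, stood at 2.28, 2.80 and 3.43 and then at 96.5, 104 and 103 CPM (5.15 ± 0.21). Neither gene overlapped between groups, as was so for 57.6% of all tested genes. Irf1 rose by 2.45 ± 0.13, Irf2 did not pass the test (0.09 ± 0.13, adjusted p = 0.555), and Irf2bp2, a corepressor, went against the list (-0.94 ± 0.05).

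Of 32 tested antiviral effectors 31 rose, 28 of them at least 2-fold, with a median log2 fold change of 5.397, and the summed level of the list went from 669 ± 15.1 to 9411 ± 122 CPM, a factor of 14.1. Ifit1, which blocks translation of foreign RNA, went from 1.93, 1.15 and 0.721 to 742, 700 and 720 CPM (9.12 ± 0.31). Ifit3 rose by 9.39 ± 0.34, the membrane restriction factor Ifitm3 by 6.39 ± 0.12 and Rsad2, viperin, by 5.45 ± 0.08. The member that did not pass was Nt5c3, a nucleotidase (-0.12 ± 0.08, adjusted p = 0.194), which was called lower with library size alone. Isg15 went from 0.702, 0.824 and 0.902 to 299, 304 and 312 CPM (8.52 ± 0.39). With it rose its activating enzyme Uba7 (4.58 ± 0.15) and its conjugating enzyme Ube2l6 (5.56 ± 0.23), and 6 of 7 genes of ISG15 conjugation were higher. The exception was the ligase gene Arih1 (-0.07 ± 0.05, adjusted p = 0.246), called lower with library size alone.

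**Figure D3:**
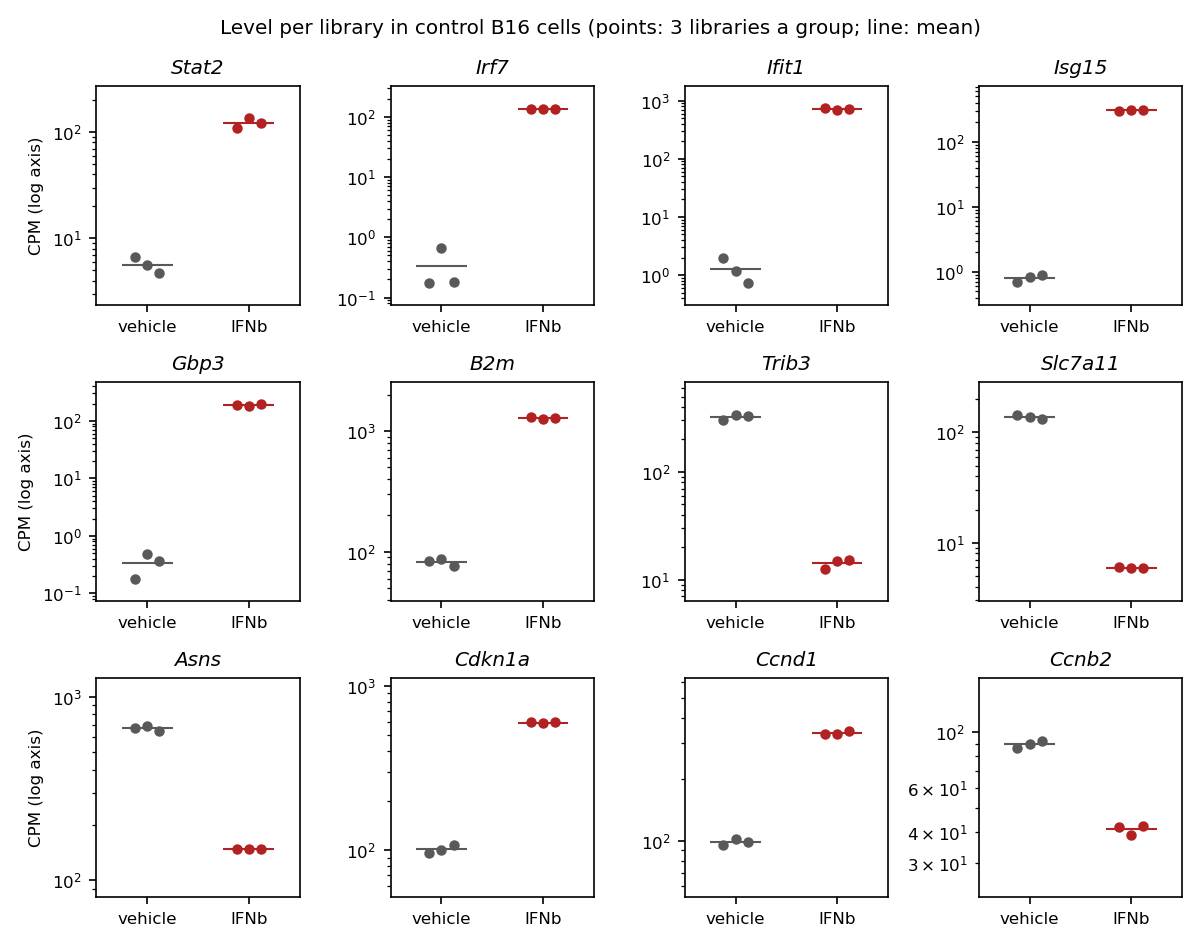
Level (CPM, log axes that differ between panels) of 12 genes in each of 3 vehicle and 3 IFNb control libraries; points are libraries and lines are group means. No gene shown overlaps between groups, as is so for 57.6% of all tested genes. Replicates differ by far less than the groups do, also where the vehicle level is near 1 CPM as in Isg15.

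Sensors of double-stranded RNA rose in 15 of 18 members (median 2.52). Ddx58, which encodes RIG-I, stood at 5.79, 3.95 and 5.95 CPM with vehicle and at 449, 457 and 454 CPM with IFNb (6.44 ± 0.16). Its regulator Dhx58 rose by 7.36 ± 0.34, and Zbp1, a sensor of Z-form nucleic acid, had 1 vehicle count and 2150 with IFNb (ratio 1950, 350 to 77071). Adar itself stood at 74.2, 70.2 and 71.8 CPM with vehicle and at 377, 383 and 392 CPM with IFNb (2.41 ± 0.05, adjusted p = 7.4e-72). It lies on chromosome 3 from 89714469 to 89753455. The counts do not tell its isoforms apart. Dhx36, a helicase of G-quadruplexes, fell by 0.35 ± 0.05, while Adarb1, which encodes a second editing enzyme, did not pass (adjusted p = 0.0704), though it did without IFNb replicate 1 (adjusted p = 0.0476) or vehicle replicate 2 (adjusted p = 0.0413). Of 13 tested genes of DNA sensing 9 rose and 0 fell, with a median of 1.89, or 1.47 with genes at 0 in a group set to their bound. Among them were Mndal (at least 124-fold) and Ifi204 (at least 100-fold), neighbours of Ifi203.

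GTPases of cell-autonomous defence rose to high levels, the guanylate-binding proteins from near silence. Guanylate-binding proteins summed to 2.79 ± 0.97 CPM with vehicle and to 467 ± 8.55 CPM with IFNb, a factor of 168, and 8 of 9 tested members rose. Gbp3 stood at 0.175, 0.494 and 0.361 and then at 191, 178 and 196 CPM (9.00 ± 0.59). Gbp7 rose by 7.64 ± 0.39, and Gbp6 and Gbp9 were at 0 with vehicle and at least 133-fold and 110-fold higher. All 8 tested immunity-related GTPases rose, 7 of them at least 2-fold. Of the 10 listed, 3 had no vehicle count. Such genes can enter the test only through their level in another group, so the filter partly sets these counts. Their list went from a summed 66.4 to 71.1 CPM to a summed 1919.7 to 2017 CPM over the libraries. Irgm1, a regulator of the family, went from 14.0 ± 2.64 to 898 ± 27.5 CPM (5.99 ± 0.10).

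Genes of antigen presentation rose, from the transactivator to the surface molecules. Nlrc5, the transactivator of MHC class I, went from 0.351, 0.494 and 0.180 to 67.9, 90.1 and 81.7 CPM (7.78 ± 0.61). B2m stood at 84.2, 87.6 and 76.1 and then at 1301, 1257 and 1290 CPM (3.95 ± 0.05), and the heavy chain gene H2-K1 at 16.1, 19.3 and 15.5 and then at 254, 247 and 271 CPM (3.91 ± 0.09). Both were an order apart between groups with no overlap, and 57.6% of all tested genes had none. Of 9 tested class I genes 8 rose, and H2-T24 did not pass (-0.07 ± 0.20, adjusted p = 0.803). Peptide transport followed, with Tap1 at 3 against 1551 counts (ratio 469, 160 to 2277), Tap2 up by 5.47 ± 0.61 and Tapbp, tapasin, by 4.06 ± 0.08. Of 12 tested genes of peptide loading and the immunoproteasome 11 rose and Canx, a lectin chaperone, fell by 0.24 ± 0.04. Psmb9, an immunoproteasome subunit, had 1 vehicle count and 202 with IFNb (ratio 183, 32.5 to 7273). In the constitutive proteasome, of 31 subunits 11 were higher (7 with library size alone), 4 were lower (2 without vehicle replicate 2) and 0 changed 2-fold, with a median of 0.07 and Psmd8 the largest rise (0.41 ± 0.05). Of these subunits 48.4% were called, near the 53.0% of all tested genes. The subunits that immunosubunits replace did not pass the test: Psmb5 (-0.06 ± 0.18, adjusted p = 0.793), Psmb6 (0.05 ± 0.07, adjusted p = 0.578) and Psmb7 (0.02 ± 0.07, adjusted p = 0.853). Of 7 genes of MHC class II 1 was tested, Cd74, and it did not pass (-0.58 ± 0.70, adjusted p = 0.485).

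PARP enzymes and TRIM genes rose almost as lists. Of 12 PARP genes 11 rose, led by Parp14 (6.94 ± 0.22), Parp12 (4.98 ± 0.09), Parp10 (4.63 ± 0.11) and the ubiquitin ligase gene Dtx3l (4.20 ± 0.09), while Parp2, a DNA repair enzyme, fell by 0.50 ± 0.12. Of 15 TRIM and PML-body genes 14 rose, with a median of 5.90 (4.15 with bounds), and Trim30a went from 0.292 to 390 CPM (10.30 ± 0.65).

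Secreted signals rose from low levels. Of 9 tested chemokine and cytokine genes 8 rose, and the list of 22 summed to 20.9 to 26.9 CPM over the vehicle libraries and to 250.4 to 277.2 CPM over the IFNb libraries. Most of that sum was Cxcl10, a chemokine that draws T cells, at 5.44, 3.95 and 4.51 CPM with vehicle and 208, 182 and 193 CPM with IFNb (5.38 ± 0.16). Csf1, a macrophage growth factor, rose by 2.30 ± 0.14 and Il18bp, a decoy of interleukin-18, by 1.83 ± 0.24. Of the list 11 genes had no vehicle count and 9 had none with IFNb. Of 9 tested checkpoint and recognition ligands 6 rose and 0 fell, with Lgals9 at 4.40 ± 0.09, Cd274, which encodes PD-L1, at 2.51 ± 0.17 and Cd276 at 0.78 ± 0.14. Among complement genes C1ra rose by 2.37 ± 0.26 and C2 by 1.91 ± 0.06.

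Cell death genes moved less than the antiviral lists. Of 24 tested 15 rose and 6 fell, with a median of 0.43. Counts in this paragraph stand beside 26.5% of all tested genes called in each direction, and the 6 lower lie near that share. Of the 24 genes, 6 changed at least 2-fold, all of them upward, beside 4.21% of all tested genes. Mlkl, the effector of necroptosis, stood at 12.8, 15.6 and 15.5 and then at 73.6, 73.3 and 66.1 CPM (2.27 ± 0.10). Ripk3, the kinase that activates Mlkl, had 0 counts in the 6 control libraries. The survival genes Bcl2l1 (1.03 ± 0.08) and Cflar (0.98 ± 0.05) rose as well, as did the death receptor gene Tnfrsf10b (1.28 ± 0.17), while Xiap, an inhibitor of caspases, fell by 0.22 ± 0.05 and the adaptor gene Fadd by 0.42 ± 0.08. Of 21 tested p53 targets 14 rose (median 0.39). Cdkn1a, which encodes the CDK inhibitor p21, went from 95.8, 99.5 and 108 to 598, 595 and 599 CPM (2.56 ± 0.05), and the nuclease gene Aen (1.52 ± 0.11), the kinase gene Plk2 (1.51 ± 0.13) and Ccng1 (1.43 ± 0.05) followed. Of the list 4 fell, or 2 without IFNb replicate 1, vehicle replicate 2 or vehicle replicate 3, and Sesn2, a stress sensor that Atf4 also drives, fell by 1.20 ± 0.07.

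**Figure D4:**
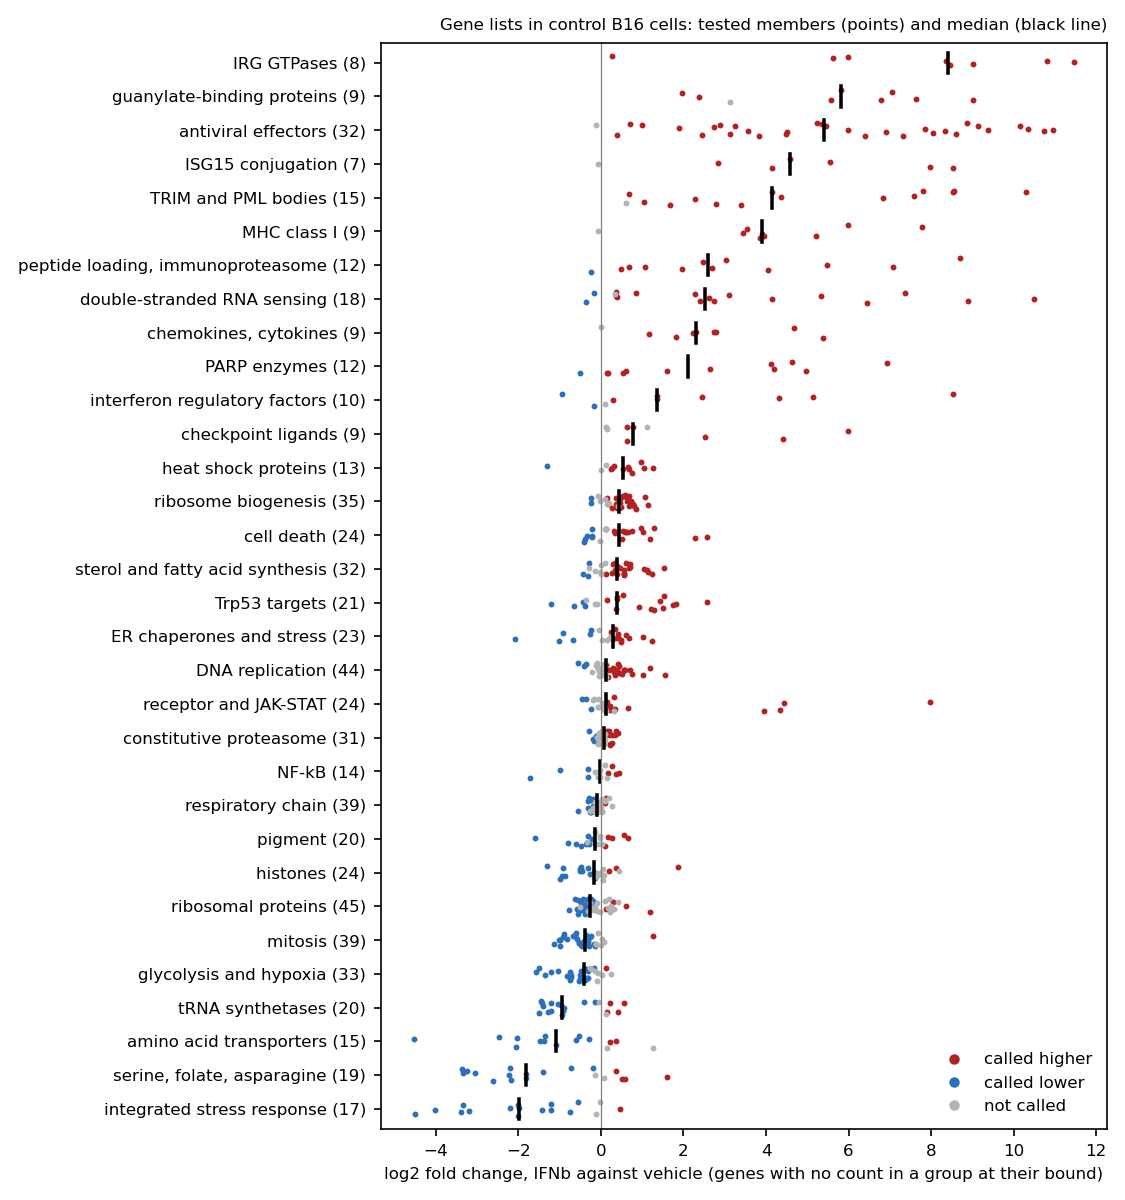
Log2 fold change with IFNb in control cells of the tested members (points; the number tested is in brackets) of 32 gene lists, with genes that had no count in a group drawn at their bound and the median as a black line; red, blue and grey mark members called higher, called lower and not called. Medians run from 8.41 for the immunity-related GTPases to -1.97 for regulators of the integrated stress response.

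The gene lists with the lowest medians were those of the integrated stress response, amino acid synthesis, amino acid transport and tRNA synthetases. These lists were chosen with earlier results known, and no test of a list was run. Their counts stand beside 26.5% of all tested genes called lower and 2.77% lowered at least 2-fold. Of 17 tested regulators of the integrated stress response 14 fell, 12 of them at least 2-fold, with a median of -1.97. Their summed level went from 2867 to 3002 CPM over the vehicle libraries to 944 to 970 CPM over the IFNb libraries. Atf4 stood at 591, 597 and 605 CPM with vehicle and at 147, 149 and 150 CPM with IFNb, a fall of 2.01 ± 0.04 on the log2 scale. Trib3, a pseudokinase that Atf4 induces, went from 303, 340 and 328 to 12.6, 15.0 and 15.3 CPM (-4.49 ± 0.09). Nupr1 went from 78.1, 70.7 and 71.6 to 3.38, 5.28 and 4.64 CPM (-4.02 ± 0.16). Vehicle and IFNb libraries were far apart in each of these. The transcription factor genes Atf5 (-3.38 ± 0.08) and Cebpb (-3.20 ± 0.14) and Chac1 (-3.33 ± 0.09) also fell. Eif2ak1, one of the kinases that start the response, went the other way (0.47 ± 0.07).

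Enzymes of serine, folate, proline and asparagine synthesis fell in 13 of 19 members (median -1.80), from a summed 4245 ± 64.7 to 1460 ± 15.9 CPM. Asns, asparagine synthetase, stood at 677, 688 and 648 and then at 148, 148 and 149 CPM (-2.18 ± 0.04). The mitochondrial folate enzymes Mthfd2 (-2.60 ± 0.05) and Aldh1l2 (-3.36 ± 0.06), the cysteine-making enzyme Cth (-3.33 ± 0.16), Pycr1 (-3.25 ± 0.23) and the alanine transaminase gene Gpt2 (-3.05 ± 0.07) were lower as well. Of the list 4 rose, and cytosolic counterparts of the mitochondrial folate enzymes were among them: Aldh1l1 rose by 1.60 ± 0.13, from 12.3 ± 1.10 to 37.3 ± 2.96 CPM, and Mthfd1 by 0.51 ± 0.07.

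Transporters and tRNA synthetases fell with them. Of 15 amino acid transporter genes 11 fell (median -1.07) and the summed level went from 3911 ± 35.8 to 1851 ± 38.3 CPM. Slc7a11 stood at 144, 137 and 132 and then at 6.05, 5.86 and 5.88 CPM (-4.53 ± 0.14). Slc7a5, a leucine transporter, stood at 763, 754 and 758 and then at 193, 180 and 182 CPM (-2.04 ± 0.04). The serine transporter gene Slc1a4 (-2.46 ± 0.07) and the glycine transporter gene Slc6a9 (-2.06 ± 0.08) fell, and Slc7a6 rose (0.37 ± 0.08). Of 20 cytosolic tRNA synthetase genes 14 fell (median -0.93), from a summed 5892 ± 92.6 to 3097 ± 27.9 CPM, with Cars (-1.49 ± 0.06), Sars (-1.46 ± 0.04), Nars (-1.42 ± 0.04) and Aars (-1.40 ± 0.04) in front. The 4 that rose included both subunits of phenylalanine synthetase, Farsa (0.56 ± 0.07) and Farsb (0.22 ± 0.06), and the glutamine synthetase gene Qars (0.42 ± 0.06). Lars2, the mitochondrial leucine synthetase gene, is set apart by its libraries: it stood at 39.8, 34.9 and 75.0 CPM with vehicle and at 1758, 167 and 552 CPM with IFNb (4.05 ± 1.36, adjusted p = 0.0292). Its call was lost without IFNb replicate 1 (adjusted p = 0.104) and without vehicle replicate 1, 2 or 3 (adjusted p = 0.0857, 0.0911 and 0.0652).

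Outside these lists, the steepest falls among genes with a mean of at least 10 CPM with vehicle and no overlap between groups were Angptl6, a secreted angiopoietin-like gene, from 11.8, 15.6 and 11.7 to 0.711, 0.286 and 0.310 CPM (-4.90 ± 0.53), Cyb5r2, a cytochrome b5 reductase gene (-3.43 ± 0.15), and Hoxb9, a homeobox gene, from 69.7, 80.9 and 81.3 to 7.47, 9.57 and 7.43 CPM (-3.23 ± 0.13).

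The unfolded protein response of the endoplasmic reticulum, which shares its Atf4 branch with the integrated stress response, had 13 of 23 tested members higher and 6 lower (median 0.29), where 26.5% of all tested genes were called in each direction. The chaperone gene Hspa5 (BiP) stood at 350, 323 and 338 and then at 683, 687 and 679 CPM (1.02 ± 0.04), and its cofactor Sdf2l1 rose by 1.24 ± 0.10. Herpud1, a factor of protein degradation, stood at 160, 164 and 155 and then at 40.2, 35.9 and 38.2 CPM (-2.07 ± 0.06), and the sensor gene Atf6 (-1.01 ± 0.05) and the degradation adaptor gene Sel1l (-0.92 ± 0.05) also fell. Of 13 tested heat shock proteins 10 rose (median 0.54), led by Hsph1 (1.26 ± 0.06) and Hspa8 (0.97 ± 0.05). The mitochondrial chaperone gene Hspa9 went against them, from 563 ± 28.5 to 228 ± 7.84 CPM (-1.30 ± 0.04).

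For translation and metabolism, counts are read against the 26.5% of all tested genes called in each direction. Of 30 initiation and elongation factors 9 rose, near that share, and 13 fell (median -0.02), and those that fell by at least 2-fold were Eif4ebp1, a repressor of cap-dependent translation (-2.01 ± 0.06), Eef2k, the kinase of elongation factor 2 (-1.71 ± 0.05), Eif2s2 (-1.07 ± 0.07) and Eif1 (-1.05 ± 0.05). Of 45 cytosolic ribosomal protein genes 25 fell and 4 rose, or 1 or 2 rose without IFNb replicate 1, 2 or 3 or vehicle replicate 2 or 3. Their median was -0.27, and 0 fell at least 2-fold. Ribosome biogenesis genes of the nucleolus moved the other way: 27 of 35 rose and 2 fell (median 0.45), with Nolc1 (1.15 ± 0.06) and Nop2 (1.06 ± 0.06) highest. Of 33 genes of glycolysis and hypoxia 25 fell (median -0.41), among them the hypoxia genes Car9 (-1.56 ± 0.13), Vegfa (-1.36 ± 0.06) and Egln3 (-1.20 ± 0.18). Sterol and fatty acid synthesis genes rose in 23 of 32 members (median 0.40). Hsd17b7, an enzyme of cholesterol synthesis, rose by 1.53 ± 0.13, and Fasn, fatty acid synthase, stood at 421, 423 and 423 and then at 946, 911 and 886 CPM (1.11 ± 0.04). The fatty acid desaturase gene Scd2 fell by 0.29 ± 0.03. Of 39 nuclear genes of the respiratory chain 12 fell (19 with library size alone) and 2 rose, or 0 without IFNb replicate 2 or vehicle replicate 2 or 3 and 1 without IFNb replicate 1, and 0 changed 2-fold. The 12 lower are near the share of all genes.

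Of 13 tested D cyclins, G1 kinases, retinoblastoma proteins and CDK inhibitors 5 rose and 6 fell (median -0.14, with 26.5% of all tested genes called in each direction). Among G1 cyclins, Ccnd1, cyclin D1, stood at 95.8, 102 and 99.2 and then at 334, 335 and 346 CPM (1.77 ± 0.05), Ccnd3 rose by 1.00 ± 0.06, and Ccne1, cyclin E1, stood at 24.9, 25.9 and 25.6 and then at 76.3, 76.7 and 73.5 CPM (1.57 ± 0.09). The CDK inhibitor gene Cdkn1b (p27) fell by 1.09 ± 0.06, opposite to Cdkn1a. Of 44 DNA replication genes 22 rose and 3 fell (7 with library size alone), with a median of 0.12, including the licensing genes Orc1 (1.02 ± 0.14) and Cdc6 (0.77 ± 0.10) among those higher and Mcm2 (-0.36 ± 0.04) among those lower. Mitotic genes fell in 32 of 39 members (median -0.38), from a summed 5045 ± 65.7 to 3749 ± 83.1 CPM. Ccnb2, cyclin B2, stood at 86.3, 89.8 and 92.5 and then at 42.0, 39.0 and 42.4 CPM (-1.12 ± 0.07), and the phosphatase gene Cdc25c (-1.01 ± 0.12) also fell. Pttg1, securin, was the mitotic gene that rose (1.26 ± 0.15). In bulk RNA, fewer cells in a phase and less RNA per cell cannot be told apart. Of 24 tested histone genes 13 fell and 3 rose, with Hist1h4a (-1.29 ± 0.05) and the linker histone gene H1f0 (-0.99 ± 0.04) lowest.

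By absolute amount, which also grows with transcript length, the pigment genes Gpnmb and Dct moved the most counts among called genes other than Rn45s. Gpnmb, a melanosome glycoprotein, gained 1927 CPM, from 3386, 3317 and 3252 to 5248, 5232 and 5257 CPM (0.66 ± 0.03). Dct, dopachrome tautomerase, fell by 2270.2 CPM, from 5410, 5386 and 5224 to 3074, 3022 and 3112 CPM (-0.80 ± 0.03). Tyrp1, next to Dct in the melanin pathway, did not pass (0.02 ± 0.03, adjusted p = 0.559), and Tyr, tyrosinase, fell by 0.59 ± 0.04. Of 20 tested pigment genes 9 fell and 5 rose (3 rose without IFNb replicate 1 or vehicle replicate 3), with a median of -0.15. The 5 higher lie near the 26.5% of all tested genes called in each direction. Lgals3bp, a secreted glycoprotein, gained from 125 ± 7.44 to 1775 ± 35.5 CPM (3.83 ± 0.04), and Rsad2 and Irgm1, described above, were among the 10 largest gains. Beside Dct the largest losses were in the elongation factor genes Eef1a1 (-0.36 ± 0.03) and Eef2 (-0.37 ± 0.03), in Ctnnb1, beta-catenin (-0.54 ± 0.03), the ubiquitin ligase gene Nedd4 (-0.55 ± 0.03) and Pkm2, pyruvate kinase (-0.52 ± 0.04), and in the amino acid genes Slc7a5, Asns, Mthfd2 and Gars (-1.20 ± 0.04).

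Some strong responders were neighbours in the genome. With 11458 of 11561 tested genes placed on GRCm38, 20 runs of at least 3 consecutive tested genes were called and raised at least 2-fold, holding 84 genes, against 2 runs of 6 genes lowered. Many members of raised runs had no vehicle count and were tested only because another group had counts, so the number of runs is a description. With the filter on low counts set on the 6 control libraries alone there were 14 raised runs of 58 genes, and with no filter 16 of 68. The longest had 8 genes each. One lies at chromosome 1 from 173566280 to 173942866 and holds the HIN-200 genes Pydc4, Pyhin1, Pydc3, AI607873, Ifi204, Mndal, Mnda and Ifi203, which all had 0 counts with vehicle. The other, at chromosome 11 from 48865245 to 49135387, holds Irgm1, Gm5431, Gm12185, 9930111J21Rik1, Tgtp1, Tgtp2, Ifi47 and Olfr56. The call of Pyhin1 ended without vehicle replicate 1, 2 or 3 or IFNb replicate 1 or 2 (adjusted p up to 0.157), and that of Gm5431 without vehicle replicate 1, 2 or 3 or IFNb replicate 2 (up to 0.154). The 7 Oas genes Oas2, Oas3, Oas1c, Oas1b, Oas1h, Oas1g and Oas1a follow each other at chromosome 5 from 120730333 to 120907544. Ifit2, Ifit3, Gm14446, I830012O16Rik, 2010002M12Rik and Ifit1 do so at chromosome 19 from 34550550 to 34662981. Some runs join partners of 1 complex or pathway: Psmb9, Tap1 and Tap2 at chromosome 17 from 34182030 to 34216321, and Parp14, Dtx3l and Parp9 at chromosome 16 from 35831892 to 35972621. Another run, at chromosome 14 from 55587440 to 55610030, holds Psme2, Rnf31 and Irf9. Overlapping neighbours may share reads, as the counting's strand setting is unknown here. The lowered run that holds Slc6a15 (-1.33 ± 0.11), Tmtc2 (-1.26 ± 0.24) and Gm15663 is on chromosome 10 from 103367808 to 105583870. The number of lowered runs was 1 without IFNb replicate 3, vehicle replicate 1 or vehicle replicate 2.

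The response of control cells was compared with that of Adar-null cells by an interaction term, the Adar-null response minus the control response, over libraries that the 2 responses do not share. Of 11561 genes 6856 (59.3%) differed, 3308 (28.6%) with a more positive and 3548 (30.7%) with a more negative response in Adar-null cells, and 1230 (10.6%) differed by more than 2-fold in a test against that size. The antiviral effectors rose in both, with medians of 5.397 in control and 6.44 in Adar-null cells, and of the 32 tested 14 had a more positive and 4 a more negative response in Adar-null cells. Rsad2 (1.61 ± 0.11), Ifit2 (2.04 ± 0.08) and the chemokine gene Cxcl10 (3.33 ± 0.25) were past a 2-fold difference, all more positive in Adar-null cells, and Irf7, Isg15, B2m and Irgm1 were not. The regulators of the integrated stress response were divided by genotype, with a median of -1.97 in control and 0.43 in Adar-null cells. Of these 17 genes 14 had a more positive response in Adar-null cells (28.6% of all genes) and 0 a more negative one. The Atf4 response was -2.01 ± 0.04 in control and 0.02 ± 0.04 in Adar-null cells, a difference of 2.02 ± 0.06, and that of Trib3 was -4.49 ± 0.09 and 0.99 ± 0.04. For DNA replication genes the control median of 0.12 stood beside -2.54 in Adar-null cells, and 44 of 44 had a more negative response there (30.7% of all genes). For mitotic genes the medians were -0.38 and -3.32, with 38 of 39 more negative. The cyclin genes Ccnd1 and Ccne1 changed sign between genotypes, with Adar-null values of -1.10 ± 0.07 for Ccnd1 (1.77 ± 0.05 in control cells) and of -2.10 ± 0.16 for Ccne1 (1.57 ± 0.09). Ccnb2 was lower in both, at -1.12 ± 0.07 and -4.22 ± 0.16. Each genotype is represented by 1 guide and its subcloned cells, so guide, subclone and genotype cannot be told apart.

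**Figure D5:**
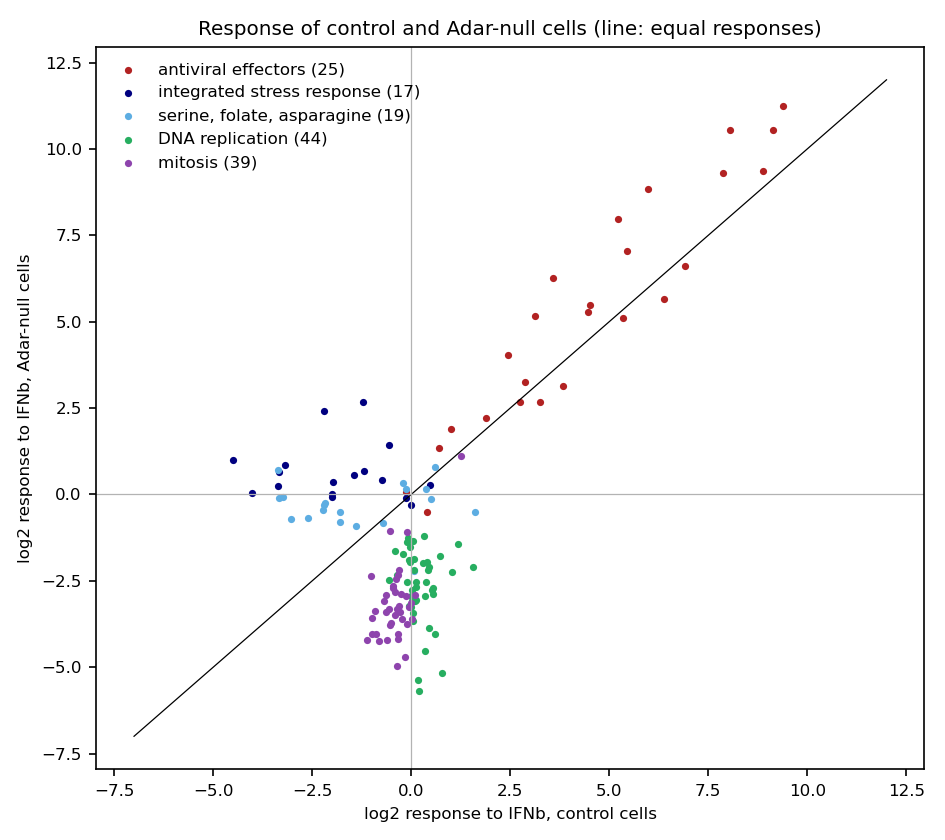
Log2 response to IFNb of control cells (x) and Adar-null cells (y) for tested members of 5 gene lists, leaving out genes with no count in a group; the line marks equal responses. Most antiviral effectors lie near or above the line, most genes of the integrated stress response and of serine, folate and asparagine synthesis lie left of 0 horizontally and closer to 0 vertically, and most genes of DNA replication and mitosis lie near 0 horizontally and below it vertically.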

How the data were processed

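RNA from B16 cells was sequenced as paired-end, directional libraries after ribosomal RNA was depleted, per the labels. The authors deposited 1 table of raw counts of reads per gene symbol. The submitters' processing notes name bcl2fastq 2.19.1, Trimmomatic 0.33, Bowtie2 2.2.4, HTSeq 0.6.1p1, DESeq2 and the build mm10, without roles. The strand setting of the counting is not given in the sources used here, so reads of overlapping antisense genes may be shared. Of 23336 symbols 17070 had a count, 25 symbols had been turned into dates, and 11561 passed filterByExpr. Each of the 12 libraries was assigned to its group from its labels.

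Counts were scaled by TMM and tested with edgeR 4.0.16 (R 4.3.3, limma 3.58.1), by a quasi-likelihood fit over all 12 libraries, with Benjamini-Hochberg adjustment over all 11561 genes and a threshold of 0.05. The common biological coefficient of variation was 0.0397. A Wald standard error accompanies each log2 fold change and is not below counting error. For genes with 0 counts in a group the fold is a lower bound against 3 counts over that group, and for 1 to 3 counts the ratio has a 95% counting interval, which covers counting error only. The difference between genotypes was also tested against a 2-fold difference with glmTreat. On simulated data with 11186 genes, 38 of 50 genes changed by 0.5 on the log2 scale and 50 of 50 changed by 1 were called. DESeq2 1.42.0, limma-voom, other scalings, other filters, a replicate block and left-out libraries were the alternatives. Correlations of same-numbered vehicle and IFNb libraries were 0.0221, -0.0525 and 0.0489, within the -0.103 to 0.0829 of differently numbered ones. They show no effect shared by number, but cannot settle whether the samples were paired.

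The genes named are Adar, the 12 largest rises and 12 largest falls (mean of at least 10 CPM in the higher group, groups that do not overlap), the 10 largest gains and losses in CPM, up to 4 called members of each list with the largest change, up to 4 called members opposite to the list's median, members said not to have passed, the switched genes at the highest level, and all genes of a run that is printed. Other names, such as Atf4, Stat3, Ifnar1, Mthfd1 and Psmb5 to Psmb7, were chosen after their values were seen. A few genes that the rule names are not reported here. The libraries and gene lists were chosen with earlier results of these data known. Promoter windows and motif searches used the RefSeq table for GRCm38.p6, and a gene has a motif if any of its windows holds it.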

Additional observations from a re-analysis of the deposited data

Results flagged for a closer look

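Of the genes named, 66 had a response to IFNb that differed between Adar-null and control cells by more than 2-fold at an adjusted p under 0.05 (edgeR, glmTreat), as did 10.6% of all tested genes. Values in brackets are differences on the log2 scale, with control cells subtracted from Adar-null cells.

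Among stress regulators the difference was positive for Trib3 (5.48), Nupr1 (4.06), Cebpb (4.05), Chac1 (3.98), Atf5 (3.61), Atf4 (2.02), Sesn2 (1.88) and Atf3 (3.89). It was positive too for the amino acid enzymes and transporters Slc7a11 (5.44), Aldh1l2 (4.06), Cth (3.24), Pycr1 (3.17), Slc1a4 (2.94), Slc6a9 (2.49), Gpt2 (2.33), Asns (1.94) and Mthfd2 (1.91), for the tRNA synthetase genes Nars (1.71), Cars (1.64), Aars (1.502), Gars (1.37) and Sars (1.13) and for the translation repressor gene Eif4ebp1 (1.93). In the amino acid lists Aldh1l1 (-2.10) was negative.

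Genes of protein folding gave Herpud1 (2.42), Atf6 (1.499), Hspa9 (1.41), Sel1l (1.23) and Hspa5 (1.18), and Hspa8 (-1.18) was negative. Interferon-stimulated and immune genes gave Cxcl10 (3.33), Ifit2 (2.04), Cd274 (1.96), Irf2bp2 (1.75), Rsad2 (1.61), Irf2 (1.52) and Cd74 (5.23).

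The cell cycle genes were negative: Cdc6 (-5.94), Ccne1 (-3.67), Orc1 (-3.28), Ccnb2 (-3.10), Ccnd1 (-2.87), Mcm2 (-1.98), Hist1h4a (-1.79) and Ccnd3 (-1.69). So were the metabolic genes Car9 (-3.61), Egln3 (-2.98), Scd2 (-1.49), Pkm2 (-1.23) and Fasn (-1.15) and the surface and matrix genes Loxl2 (-3.43) and Kit (-2.18).

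Other positive differences were Angptl6 (6.51), Hoxb9 (3.64), Cyb5r2 (3.34), Hmox1 (3.22), Plk2 (2.07), Tmtc2 (1.62), Junb (1.58) and Timp3 (1.26). Genes with few or no counts in control cells with IFNb gave Atp2a3 (8.31), Elfn2 (7.35), Akr1b7 (7.30), Soat2 (6.73), Gm15663 (5.73) and G0s2 (4.61), values that depend on the prior count of the fit and are no bounds. Each genotype stands for 1 guide, so guide, subclone and genotype cannot be told apart in these differences.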

How the results depend on the processing

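Across the alternatives run, 0 named genes reversed direction where called, and a reversal was assessed for named genes only. The call changed in at least 1 alternative for 37 of 207 named control responses and for 21 of 207 named response differences. The number of genes called higher and lower was 3083 and 3051 with DESeq2 size factors, 2826 and 3360 with upper-quartile scaling, 2650 and 2548 with the DESeq2 Wald test, 3026 and 3035 with limma-voom, 2997 and 3005 with no filter, 3063 and 2969 with the 6 control libraries alone, and 2815 to 2917 and 2718 to 2863 with 1 control library left out. A test against a 1.5-fold change called 577 higher and 403 lower. With the replicate number as a block the counts were 3042 and 3033. Not every library correlated best with its own number, and whether the numbers mark paired samples is not known. Lowered runs of neighbours fell from 2 to 1 and their genes from 6 to 3 with the DESeq2 Wald test, the 6 control libraries alone or the 1.5-fold test. With 1 library left out they ranged from 1 to 3 runs and 3 to 9 genes. Genes switched off then ranged from 9 to 27, with the limit of 3 counts kept for the remaining libraries of a group. Restricting motif classes to 4-fold changes gave, for genes raised, 42.8% (ISRE), 17.2% (gamma-activated site) and 6.21% (C/EBP-ATF), and for genes lowered 6.38% (ISRE), 29.8% (C/EBP-ATF) and 0 (E2F). The cause of these shifts was not tested. At this depth, genes near 1 CPM rest on few counts per library, so folds there are bounds or wide intervals.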

Other observations

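For further gene lists the counts are set beside the 26.5% of all tested genes called in each direction, and several lie near it. Of 18 tested targets of Nrf2, the factor of the oxidative stress response, 8 rose and 5 fell (median log2 fold change 0.10, against -0.0049 over all tested genes), with G6pdx, the entry enzyme of the pentose phosphate pathway, up (1.01 ± 0.07) and Hmox1, heme oxygenase, down (-0.96 ± 0.06). Of 21 tested AP-1 and immediate early genes 10 rose and 5 fell (median 0.06), with Junb (1.33 ± 0.12) and Fos (1.19 ± 0.14) higher and Atf3 (-1.21 ± 0.10) lower. Of 16 tested regulators of melanoma state 6 rose and 6 fell. The receptor kinase gene Axl stood at 12.5, 13.7 and 12.1 CPM with vehicle and at 51.7, 64.3 and 57.9 CPM with IFNb (2.189 ± 0.12), the lineage cofactor Cited1 rose by 1.17 ± 0.16, and Kit, a receptor kinase of melanocytes, fell by 1.17 ± 0.19.

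Among 29 tested lysosomal genes 9 rose and 11 fell, or 7 fell without IFNb replicate 2. The protease gene Ctsb stood at 247, 259 and 246 and then at 586, 582 and 589 CPM (1.22 ± 0.04), and the glycosidase gene Gla (0.83 ± 0.14) also rose. Of 22 tested matrix and adhesion genes 9 rose and 7 fell, with the integrin gene Itga5 higher (0.75 ± 0.11) and the collagen-crosslinking enzyme Loxl2 (-1.22 ± 0.21) and the protease inhibitor Timp3 (-1.09 ± 0.06) lower.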
